A study of Mus musculus with 3 samples.

Results

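The extracellular matrix and the enzymes that build and remodel it were followed in L929 mouse fibroblasts through a list of 43 genes, of 55825 gene symbols in the series. The members were picked by name and without a rule on their values, but with earlier results of these data known. They are 12 collagen chains, 14 glycoproteins, proteoglycans and elastic fibre proteins, 3 basement membrane proteins, 8 enzymes and chaperones of collagen folding and crosslinking, and 6 proteases and their inhibitors. Ctgf and Cyr61 appear under their current symbols, Ccn2 and Ccn1. The series set L929 cells in which Rrm2, which encodes a ribonucleotide reductase subunit, was knocked down, against L929 control cells. Each was read by CBTi-seq, in 1 sample with 10 columns named knock and 10 named control, and by a method directed at transcript 3' ends, in 1 library labelled knock and 1 labelled control with 8 columns each. Individual cells were picked with a capillary, and a column is taken here as 1 such cell or well. The sources used here do not state how the knockdown was made, whether the cells were 1 clone or how many cultures were used.

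Fibrillar collagens are made as long chains that are hydroxylated and wound into a triple helix in the endoplasmic reticulum, exported, trimmed and crosslinked outside the cell. Prolyl hydroxylases stabilise the helix, lysyl hydroxylases prepare the crosslinking sites, the chaperone Hsp47 guards the folded helix, and lysyl oxidases form the crosslinks. Fibroblasts are the main producers of this material, and they also make the matrix metalloproteases that cut it and the TIMP inhibitors that restrain those proteases.

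The columns of CBTi-seq held 153051 to 735871 counts in the knock columns and 41570 to 846819 counts in the control columns. Those of the 3' libraries held 814960 to 1973137 counts in the library labelled knock and 399393 to 2496457 in the one labelled control. In CBTi-seq no count of any gene in any column passed 638, against 67257 in the 3' libraries. Rrm2 itself was at 350.1 CPM (gene counts scaled to a common total of 1e6) in the CBTi-seq knock columns and 481 CPM in the control columns. By the 3' method it went against the labels, with 148 CPM in the library labelled knock and 39.1 CPM in the one labelled control, so each 3' direction rests on labels that the targeted gene does not bear out. Of 16 fibroblast markers, 10 reached 10 CPM in both CBTi-seq groups and 9 in each 3' library, led by Vim, S100a4 and Serpinh1. Among the 3' libraries, Col1a2 reached it only in the one labelled knock and Dcn only in the one labelled control. Thy1, Fap, Dcn, Lum and Twist1 had no row in CBTi-seq. With 1 sample a group there was no test of any difference. Intervals are exact 95% intervals that cover counting error only, and columns are described by their lowest, median and highest value.

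Most of the matrix genes had counts, and the strongest in CBTi-seq were a chaperone and a small glycoprotein rather than a collagen. In CBTi-seq 34 members had a row, of which 27 reached a mean of 20 CPM over the groups and 24 reached 50 CPM. All 43 had a row in the 3' tables, of which 18 reached 20 CPM and 9 reached 50 CPM. Per kilobase of the longest annotated transcript, Serpinh1 led in CBTi-seq with a level of 243 CPM per kb. It encodes Hsp47. Sparc, a secreted collagen-binding glycoprotein, followed with a level of 235 CPM per kb, then the protease inhibitor gene Timp1 with 125 CPM per kb, which was 14th among the members in CPM not divided by length. The proteoglycan gene Bgn and the matricellular gene Ccn1 came next, with levels of 64.9 and 49.7 CPM per kb. Serpinh1 and Sparc also led in CPM not divided by length, but behind them the order differed. Col6a3 was 3rd in CPM and 15th per kb. Whether CBTi-seq counts scale with length is not given, so no order behind Serpinh1 and Sparc is drawn from them. Sparc led in the 3' libraries on either scale, with a level of 540.4 CPM per kb. Behind it the order depended on the scale: Serpinh1 stood at 57.6 and the lysyl oxidase gene Loxl1 at 45.8 CPM per kb, but Serpinh1 at 131 and Loxl1 at 151 CPM as a mean of both libraries. A method that counts transcript ends need not scale with length, so no order below Sparc is drawn from the 3' levels.

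The silent or nearly silent members were partly the same in both assays. Postn, which encodes periostin, Thbs1, Ccn2 and the gelatinase gene Mmp2 had no row in CBTi-seq and no count in either 3' library, where 3 counts would make 0.327 CPM in the library labelled knock and 0.424 CPM in the one labelled control. Lum, Eln and Mmp3 had no row in CBTi-seq and at most 9 counts in a 3' library. Tnc, Lox and Timp3 had at most 2 counts in a CBTi-seq group, Tnc and Timp3 had none in the 3' libraries, and Lox had 5 counts in the library labelled knock and 0 in the one labelled control. Col3a1, the partner of type I collagen in many fibroblasts, was at 3.42 CPM in the CBTi-seq knock columns and 2.07 CPM in the control columns. By the 3' method it had 6 counts in the library labelled knock and 0 in the one labelled control. Fbn1, the fibrillin of elastic microfibrils, was at 14.3 CPM in the CBTi-seq knock columns and 15.3 CPM in the control columns, Thbs2, a thrombospondin, at 13.97 and 15.8 CPM, and the lysyl oxidase relative Loxl2 at 7.13 and 12.4 CPM. These 3 stayed under 10 CPM in the 3' libraries. Col12a1 and Dcn had a row only in the 3' tables. Col12a1, a chain that sits on the surface of collagen fibrils, was at 80.7 CPM in the library labelled knock and 63.2 CPM in the one labelled control.

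Timp1 was the plainest case of a gene seen by one assay. It was at 124 CPM in the CBTi-seq knock columns and 96.6 CPM in the control columns with a count in all 10 columns of each group, and it had 0 counts in both 3' libraries. Timp1 (ENSMUSG00000001131) lies on chromosome X from 20870166 to 20874735 on the plus strand (GRCm38, as all gene positions here), inside Syn1, which is on the opposite strand. Syn1, a neuronal gene, had no row in CBTi-seq and 39.5 CPM in the 3' library labelled knock, against 51.5 CPM in the one labelled control. The sources used here do not say whether the counting used strand, so reads of Timp1 and Syn1 cannot be told apart.

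**Figure D1:**
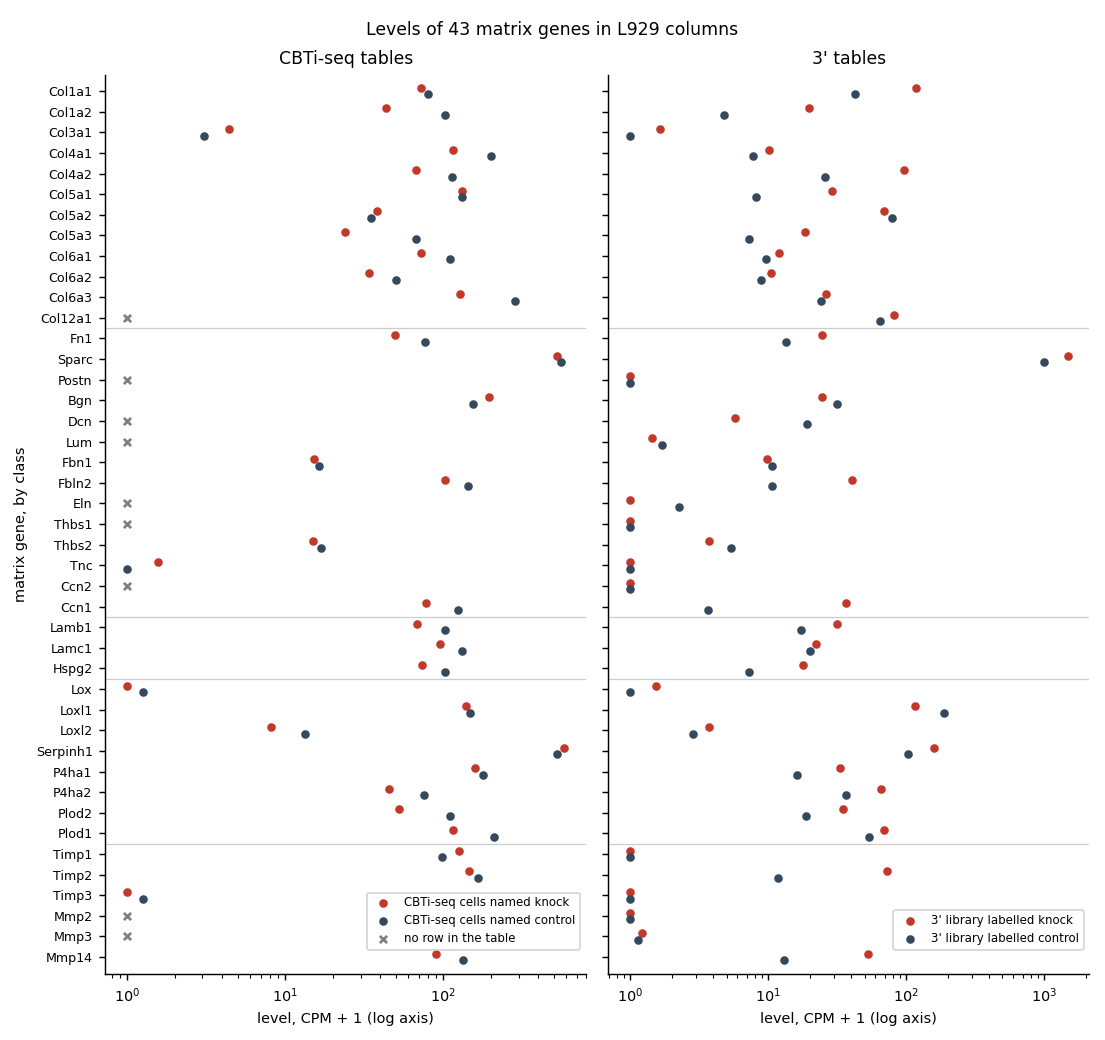
Levels of the 43 matrix genes on a log axis in CPM, by class, in each assay, with knock and control marked apart and crosses for genes with no row in CBTi-seq. Serpinh1 and Sparc stand highest in CBTi-seq, and Sparc, at 1479.7 CPM in the library labelled knock and 1006 CPM in the one labelled control, stands highest in the 3' libraries.

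In CBTi-seq the matrix genes were mostly lower in the knock columns, and of the 5 classes the collagen chains had the lowest median ratio. Of the 27 members at 20 CPM or more, 23 were lower and 4 higher, where 55.3% of all genes at that level were lower and 44.7% higher. The median log2 ratio of knock over control was -0.58 for the members and -0.05 for all genes. Among the 24 members with a mean of at least 50 CPM, 3 were at least 2-fold lower (Col1a2, Col6a3 and Plod2), beside 0.668% of all genes at that level. None of the 24 was 2-fold higher, beside 0.343% of all genes.

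Col6a3, the longest chain of the type VI collagen microfibril, had the largest difference in CPM of any member in CBTi-seq. The gene (ENSMUSG00000048126) lies on chromosome 1 from 90765923 to 90843971 on the minus strand. Its columns had a lowest, median and highest level of 70.9, 109.6 and 191 CPM among the knock columns, against 48.1, 274 and 393 CPM among the control columns. The control columns were the higher ones apart from control column 1, the shallowest, in which 1 count makes 24.1 CPM. Summed, Col6a3 was at 126 CPM (115 to 139) in the knock columns and 284 CPM (267 to 301) in the control columns, a log2 ratio of -1.17 (-1.33 to -1.01). No member had all its knock columns below all its control columns, beside 0.114% of all genes, nor all of them above, beside 0.0763%. With control column 1 left out, an alternative chosen after seeing the data, Col6a3 did, with a highest knock column at 191 CPM and a lowest control column at 228 CPM, beside 0.191% of all genes.

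Col1a2 and Col1a1, the chains that together make type I collagen, had unlike ratios in CBTi-seq. Col1a2 (ENSMUSG00000029661, chromosome 6 from 4504814 to 4541544, plus strand) had 19.3, 43.2 and 75.7 CPM as its lowest, median and highest knock column, against 0, 86.2 and 146 CPM in the control columns. The summed level was 42.2 CPM (35.7 to 49.6) in the knock columns and 101 CPM (91.2 to 112) in the control columns, which put the knock level at 41.8% of the control level, a log2 ratio of -1.26 (-1.54 to -0.98). With each column weighing the same the ratio of Col1a2 was -0.96. Col1a1 was at 71.0 CPM in the knock columns and 78.5 CPM in the control columns, a log2 ratio of -0.14 whose counting interval (-0.39 to 0.10) included 0, and of -0.67 after thinning each column to 50000 counts. Here and below, thinning was a random draw that was not repeated and left out CBTi-seq control column 1. Thinned ratios rest on fewer counts and are given without intervals, so their counting error is not shown. An annotated gene model overlaps Col1a2 on the same strand, and others overlap Col3a1, Col4a1, Col5a2, Col6a3, Lamc1, Hspg2, Loxl2 and Timp2. How their shared reads were counted is not given.

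The start region of Col1a2 is shown because Col1a2 had the lowest ratio among the members at 50 CPM or more. The window runs from 250 bases before to 50 bases after the RefSeq start, chr6:4505368-4505667 on the plus strand (GRCm38.p6). The GENCODE gene given above starts before this window, at 4504814, so the window does not flank that start. Capitals mark ACGTG, the core letters of the hypoxia response element, and CCAAT, the letters of the CCAAT box, each searched on both strands, so that CACGT and ATTGG are matches on the other strand.
Col1a2: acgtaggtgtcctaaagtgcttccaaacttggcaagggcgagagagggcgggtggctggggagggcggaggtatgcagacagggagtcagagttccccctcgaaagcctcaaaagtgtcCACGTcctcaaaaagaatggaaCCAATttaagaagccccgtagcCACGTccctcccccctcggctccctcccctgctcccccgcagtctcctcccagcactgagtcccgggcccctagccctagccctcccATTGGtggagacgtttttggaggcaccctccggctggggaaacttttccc
The window holds 2 matches of each, none overlapping another. Over 32851 windows of the same length, 19.6% held ACGTG and 37.4% held CCAAT. Among the 31 windows of the 28 members found in the table, 7 (22.6%) and 10 (32.3%) held them, so neither set of letters was more than a few percentage points from its share among all windows. A match is a run of letters and not a measured binding site.

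The basement membrane collagen chains Col4a1 and Col4a2 sit head to head on chromosome 8 and had nearly the same ratio in CBTi-seq. Col4a1 (ENSMUSG00000031502, 11198423 to 11312826, minus strand) had 78.4, 107 and 139 CPM as its lowest, median and highest knock column, against 135, 191 and 293 CPM in the control columns. The highest knock column lay just inside the range of the control columns. Its log2 ratio was -0.79 (-0.97 to -0.62). Col4a2 (ENSMUSG00000031503, 11312805 to 11449287, plus strand) had 13.3, 67.4 and 106 CPM in the knock columns, against 48.1, 108 and 210.0 CPM in the control columns, and a log2 ratio of -0.75 (-0.99 to -0.52). Spearman's rho between both genes was -0.10 over the 10 knock columns and 0.43 over the 10 control columns.

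Their RefSeq start windows are shown because they overlap. The window of Col4a1 is chr8:11312777-11313076 on the minus strand and that of Col4a2 is chr8:11312555-11312854 on the plus strand (GRCm38.p6). Each is written on its own strand, and capitals mark the 78 bases that both windows share, from 11312777 to 11312854.
Col4a1: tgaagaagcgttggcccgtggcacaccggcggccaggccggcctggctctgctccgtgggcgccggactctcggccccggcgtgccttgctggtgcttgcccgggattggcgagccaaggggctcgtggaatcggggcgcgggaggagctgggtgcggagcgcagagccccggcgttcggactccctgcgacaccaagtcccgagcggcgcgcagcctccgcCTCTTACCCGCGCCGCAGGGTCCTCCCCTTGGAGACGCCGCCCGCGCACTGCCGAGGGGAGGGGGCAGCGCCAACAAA
Col4a2: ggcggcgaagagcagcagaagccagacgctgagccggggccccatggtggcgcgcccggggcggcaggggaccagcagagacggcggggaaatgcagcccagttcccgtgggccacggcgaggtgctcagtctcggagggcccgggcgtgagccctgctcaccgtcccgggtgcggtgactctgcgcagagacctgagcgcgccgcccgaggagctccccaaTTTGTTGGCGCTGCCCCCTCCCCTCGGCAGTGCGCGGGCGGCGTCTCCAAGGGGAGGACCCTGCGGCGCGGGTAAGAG
The capitals of one are the reverse complement of the capitals of the other, so the annotated transcripts start on opposite strands within the same short stretch.

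The other collagen chains were mostly lower or level in the CBTi-seq knock columns. Over the 10 chains at 20 CPM or more the median log2 ratio was -0.69, with 9 lower and 1 higher (8 and 2 with TMM factors, which scale by the bulk of genes and not by the total). Col5a1, a chain of the type V collagen that sets the width of type I fibrils, was at 130.02 CPM in the knock columns and 130.25 CPM in the control columns, and its sign turned positive with TMM or median-of-ratios factors and with totals that leave out mitochondrial and ribosomal protein genes. Col5a2 was the chain that was higher, at 37.4 CPM in the knock columns and 33.7 CPM in the control columns, with an interval of its log2 ratio (-0.21 to 0.51) that included 0. Col5a3 lay just under the 50 CPM limit and had the lowest ratio of the members at 20 CPM or more, with 22.8 CPM in the knock columns and 65.8 CPM in the control columns (log2 ratio -1.53, -1.91 to -1.16). It was named after its values were seen. Col6a1 and Col6a2, the partners of Col6a3, had log2 ratios of -0.63 and -0.59.

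Among the enzymes, both lysyl hydroxylases were lower and the chaperone was not, and over the 6 at 20 CPM or more the median log2 ratio was -0.47 with 5 lower. Plod2, which hydroxylates lysines of the collagen telopeptides, had 13.0, 51.4 and 69.3 CPM as its lowest, median and highest knock column, against 24.1, 97.1 and 188 CPM in the control columns. Its summed level was 51.3 CPM (44.1 to 59.4) in the knock columns and 109 CPM (98.8 to 119.9) in the control columns, a log2 ratio of -1.09 (-1.35 to -0.83). Without knock column 4 that ratio was -0.98, without control column 3 it was -0.99, and with each column thinned to 50000 counts it was -0.51. Plod1, which acts on lysines of the helix, had 70.6, 109.8 and 159 CPM in the knock columns, against 24.1, 197 and 279 CPM in the control columns. Its log2 ratio was -0.88 (-1.06 to -0.71), and -1.04 without knock column 10. The prolyl hydroxylase subunit genes P4ha2 and P4ha1 had log2 ratios of -0.75 (-1.05 to -0.47) and -0.19 (-0.35 to -0.02), and that of P4ha2 was -2.07 after thinning. Serpinh1 was at 583 CPM (558 to 609) in the knock columns and 521 CPM (498 to 544) in the control columns, a log2 ratio of 0.16 (0.07 to 0.25) that was -0.09 after thinning. Loxl1 had a log2 ratio of -0.09 whose interval (-0.27 to 0.09) included 0. Lox itself had 0 counts in the knock columns and 1 in the control columns.

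**Figure D2:**
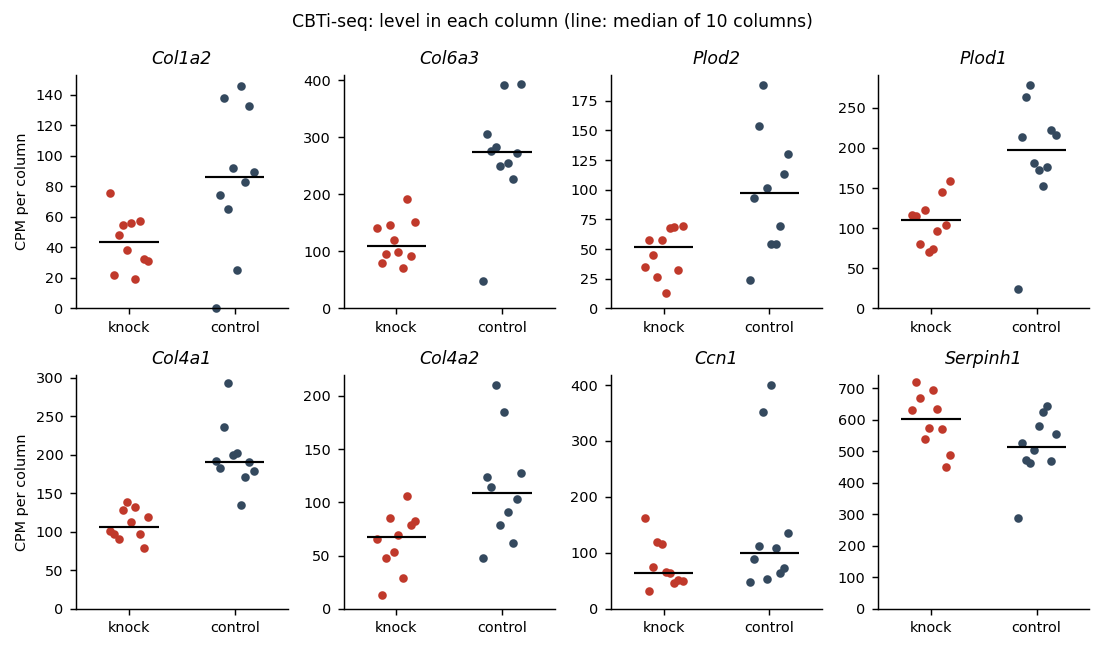
CPM in each CBTi-seq column for Col1a2, Col6a3, Plod2, Plod1, Col4a1, Col4a2, Ccn1 and Serpinh1, knock columns left and control columns right, with a bar at the median. The knock columns of Col6a3 reach 191 CPM and all control columns but the shallowest lie above them, while those of Serpinh1 overlap the control columns throughout.

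The glycoproteins and the basement membrane proteins had a median log2 ratio of -0.48 in each class, close to the -0.47 of the enzymes, with 4 of 5 and 3 of 3 lower. Fn1, fibronectin, was at 48.8 CPM in the knock columns and 75.1 CPM in the control columns (log2 ratio -0.62). Its control columns ran from 7.29 to 197 CPM, and without control column 3, the highest, the ratio was -0.22. Ccn1, an immediate-early matricellular gene, had 31.0, 64.7 and 161 CPM as its lowest, median and highest knock column, against 48.1, 99.5 and 399.8 CPM in the control columns. Its log2 ratio was -0.68 (-0.90 to -0.46), and -0.45 without control column 6, the highest, or -0.46 without control column 4. The laminin chain genes Lamb1 and Lamc1 had log2 ratios of -0.59 and -0.48, the perlecan gene Hspg2 -0.48 and the fibulin gene Fbln2 -0.48. Without control column 9 the ratio of Lamb1 was -0.35 and that of Col6a1 was -0.41. Sparc was at 526 CPM in the knock columns and 556 CPM in the control columns, with an interval (-0.17 to 0.01) that included 0 and a log2 ratio of 0.02 after thinning. Bgn, biglycan, was at 193 CPM in the knock columns and 153 CPM in the control columns (log2 ratio 0.34, 0.18 to 0.50), but its ratio was -0.25 after thinning.

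Of the 3 proteases and inhibitors at 20 CPM or more, Mmp14 and Timp2 were lower and Timp1 higher in the CBTi-seq knock columns, with a median log2 ratio of -0.18. Mmp14, the membrane-anchored collagenase, was at 88.7 CPM (79.1 to 99.1) in the knock columns and 133 CPM (122 to 145) in the control columns, a log2 ratio of -0.58 (-0.79 to -0.38), and of -1.04 after thinning. Timp1, a soluble inhibitor of matrix proteases, had 78.8, 124 and 179.6 CPM as its lowest, median and highest knock column, against 45.2, 98.1 and 164 CPM in the control columns, and a log2 ratio of 0.36 (0.16 to 0.56). The ranges of both genes overlapped between groups. Timp2 had a log2 ratio of -0.18 (-0.35 to -0.01), with 1 control column, the shallowest, at 601 CPM, and a ratio of 0.05 after thinning.

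**Figure D3:**
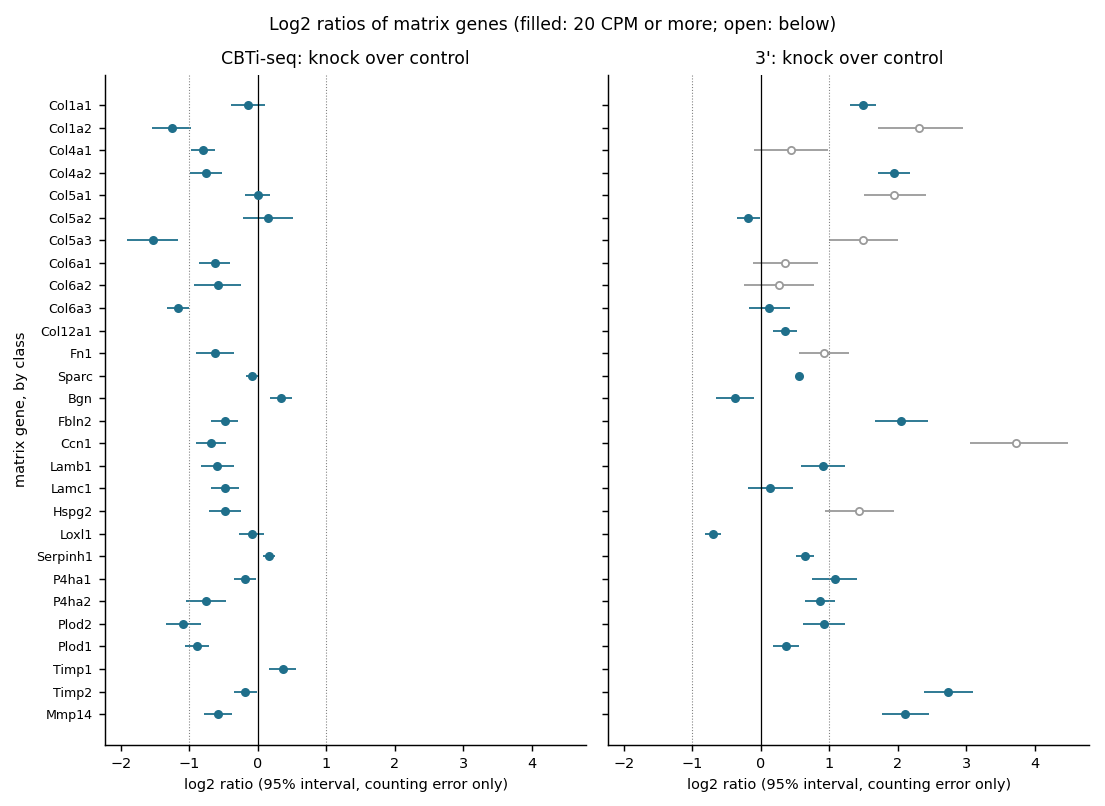
Log2 ratio of knock over control for the matrix genes with a level of at least 20 CPM in either assay, with 95% counting intervals. Points are filled at 20 CPM or more in the assay shown and open below it. A solid line marks 0 and dotted lines mark 2-fold in each direction. Most filled points lie left of 0 in CBTi-seq and right of it in the 3' libraries.

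In the 3' libraries the direction was the other way round: most matrix genes stood higher in the library labelled knock. Of the 18 members at 20 CPM or more, 15 were higher and 3 lower, where 58.8% of all genes were higher and 41.2% lower. With TMM or median-of-ratios factors, which shifted every 3' log2 ratio by -0.15 and -0.16, 13 members were higher, since Col6a3 and Lamc1 changed sign. The median log2 ratio was 0.75 for the members and 0.18 for all genes, and with either of those factors the median of the members was 0.60. By class, 4 of 5 collagen chains were higher (3 with TMM factors) with a median log2 ratio of 0.35, 5 of 6 enzymes with 0.75, 2 of 3 glycoproteins with 0.56, both basement membrane proteins (1 with TMM factors) with 0.52, and both proteases and inhibitors at that level, Timp2 and Mmp14, with 2.42. Of the 9 members that reached 50 CPM, those at least 2-fold higher were 2 (Col1a1 and Col4a2), beside 13.3% of all genes at that level, and none was at least 2-fold lower, beside 4.53%. Among all genes, 377 were at least 2-fold higher and 128 lower, against 270 and 206 with TMM factors.

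Col1a1 (ENSMUSG00000001506, chromosome 11 from 94936224 to 94953042, plus strand) had 97.4, 116 and 134 CPM as its lowest, median and highest column in the library labelled knock, against 33.6, 44.2 and 64.5 CPM in the one labelled control. The columns did not overlap. Its summed level was 117 CPM (110.3 to 124) in the library labelled knock and 41.7 CPM (37.1 to 46.8) in the one labelled control, a log2 ratio of 1.49 (1.30 to 1.68). Col4a2 had 78.7, 93.9 and 112 CPM in the library labelled knock, against 13.4, 26.5 and 39.7 CPM in the one labelled control, again with no overlap, and a log2 ratio of 1.94 (1.70 to 2.18). Its head-to-head neighbour Col4a1 was at 9.17 CPM in the library labelled knock and 6.79 CPM in the one labelled control, with an interval of its log2 ratio (-0.10 to 0.98) that included 0. At 50 CPM or more the lower member with separated columns was Loxl1, which had 98.3, 121 and 138 CPM in the library labelled knock, against 164, 183 and 223 CPM in the one labelled control, a log2 ratio of -0.70 (-0.81 to -0.58).

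Of the 9 members at 50 CPM or more, 5 had every column of the library labelled knock above every column of the one labelled control (Col1a1, Col4a2, Sparc, Serpinh1 and P4ha2), where 24.6% of all genes did. Loxl1 was the 1 member with all of them below, where 11.7% of all genes were. Columns of a 3' library come from the same library, so this separation sets 2 libraries apart and is no replicate check. Sparc had 1368, 1478 and 1604 CPM as its lowest, median and highest column in the library labelled knock, against 937, 996 and 1116 CPM in the one labelled control, a log2 ratio of 0.56 (0.51 to 0.60). Serpinh1 had a log2 ratio of 0.64 (0.51 to 0.77) and P4ha2 of 0.86 (0.65 to 1.08). Plod1 and Col12a1 had log2 ratios of 0.36 and 0.35, and Col5a2 of -0.19. Without column 2 of the library labelled control, the ratio of Col12a1 was 0.05 and that of Col5a2 was 0.04.

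**Figure D4:**
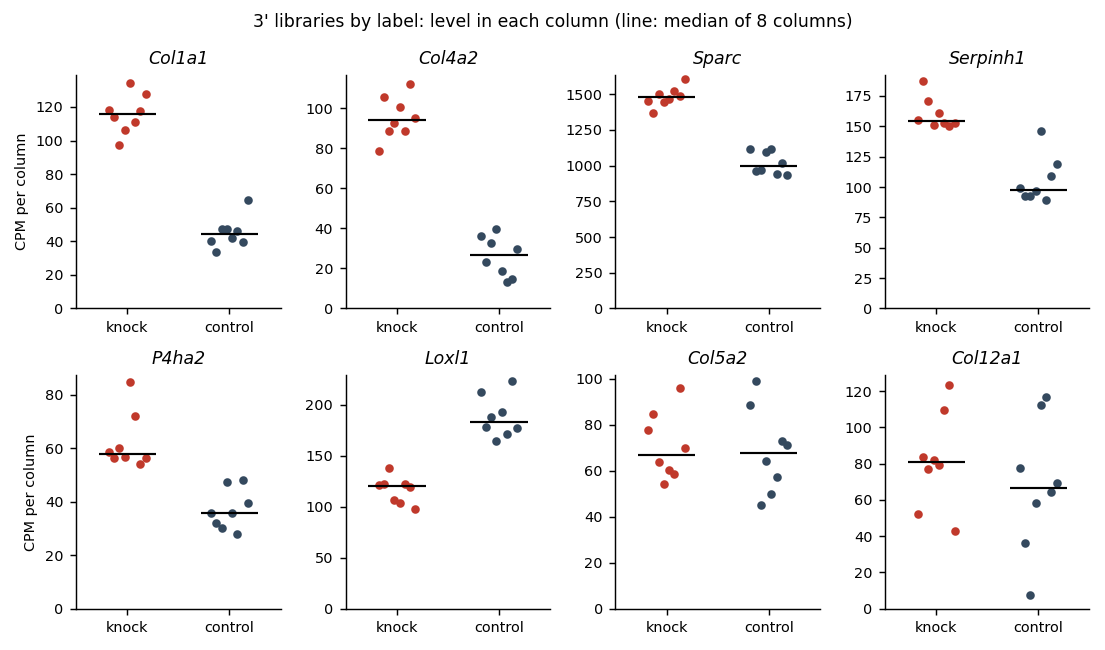
CPM in each column of the 3' libraries for Col1a1, Col4a2, Sparc, Serpinh1, P4ha2, Loxl1, Col5a2 and Col12a1, library labelled knock left and library labelled control right, with a bar at the median. The columns of Col1a1 lie at 97.4 to 134 CPM in the library labelled knock and at 33.6 to 64.5 CPM in the one labelled control, and those of Loxl1 lie the other way round, while Col5a2 and Col12a1 overlap.

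Below 50 CPM, 9 members with a count in both 3' libraries had a ratio of 2-fold or more toward the library labelled knock and 1 toward the other, and they were named after their values were seen. For 6 of the 9 (Col5a1, Col5a3, Fbln2, Ccn1, Timp2 and Mmp14) the columns did not overlap. The share of all genes below 50 CPM that did so was not computed, so these counts are not shown to be particular to matrix genes. At 50 CPM or more, 13.3% of all genes were at least 2-fold higher and 4.53% lower in the library labelled knock. At that level 24.6% had all its columns above and 11.7% all below. Timp2 was at 71.5 CPM (66.1 to 77.2) in the library labelled knock and 10.8 CPM (8.47 to 13.5) in the one labelled control, a log2 ratio of 2.73 (2.39 to 3.10). Mmp14 was at 51.7 CPM in the library labelled knock and 12.03 CPM in the one labelled control, a log2 ratio of 2.10 (1.77 to 2.46). Fbln2 had a log2 ratio of 2.05 (1.67 to 2.44), Ccn1 of 3.73 (3.06 to 4.48, from 326 counts in the library labelled knock and 19 in the one labelled control) and Col1a2 of 2.31 (1.71 to 2.95, from 173 and 27 counts). The type V chains Col5a1 and Col5a3 had log2 ratios of 1.95 (1.51 to 2.41, from 255 and 51 counts) and 1.49 (0.999 to 2.00, from 160 and 44 counts), the basement membrane perlecan gene Hspg2 of 1.43 (0.94 to 1.95) and P4ha1 of 1.08 (0.75 to 1.41). The proteoglycan gene Dcn, decorin, went the other way, at 4.8 CPM in the library labelled knock and 18.1 CPM in the one labelled control (log2 ratio -1.92, -2.44 to -1.41). Its columns ran from 2.26 to 8.37 CPM in the library labelled knock and from 10.0 to 26.5 CPM in the one labelled control, without overlap. Eln, elastin, had 0 counts in the library labelled knock and 9 in the one labelled control.

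The start window of P4ha2 is shown as that of a collagen-modifying enzyme that is induced by hypoxia in many cell types and whose ratio had opposite signs in the assays. It is chr11:54100674-54100973 on the plus strand (RefSeq, GRCm38.p6), with ACGTG in capitals and no match of CCAAT. The GENCODE gene starts before this window, at 54100095.
P4ha2: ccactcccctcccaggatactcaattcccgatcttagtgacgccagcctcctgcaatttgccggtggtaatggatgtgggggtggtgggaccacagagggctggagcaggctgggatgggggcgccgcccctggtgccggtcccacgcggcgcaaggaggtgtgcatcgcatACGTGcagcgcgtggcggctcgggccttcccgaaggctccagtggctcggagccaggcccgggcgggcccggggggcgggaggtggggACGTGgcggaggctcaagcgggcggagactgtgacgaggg
The window holds 2 matches of ACGTG. P4ha1, Serpinh1, Timp1, Mmp14 and Col5a1 also had a window with ACGTG on either strand.

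Set side by side as labelled, the assays gave opposite signs for most members. The share of all genes with opposite signs was not counted, so this is not shown to be particular to the matrix genes. Of the 17 members at 20 CPM or more in both, 13 were lower in the CBTi-seq knock columns and had a higher 3' level in the library labelled knock, 2 were the reverse (Col5a2 and Bgn), Loxl1 was lower in both and Serpinh1 was higher in both. After thinning, the CBTi-seq signs of Sparc and Timp2, both among the 13, and of Bgn, Loxl1 and Serpinh1 turned round, as did the 3' sign of Col5a2. These thinned signs come from a random draw that was not repeated and have no intervals. Single ratios after thinning were computed only for members at 50 CPM or more in the assay. The thinned signs of the others, among them the 3' signs of Timp2, Mmp14, Fbln2 and Plod2, are therefore not known. For 10 of the 17 both intervals lay on opposite sides of 0. Among the 10, the upper CBTi-seq limits of P4ha1 (-0.02) and Timp2 (-0.01) were close to 0. TMM factors shift every CBTi-seq log2 ratio by 0.08 and median-of-ratios factors by 0.05, which puts 0 inside those intervals. Under TMM factors the 3' signs of Col6a3 and Lamc1 among the 13 turned negative. Rrm2 had opposite signs in the assays as well, so these directions are only as firm as the 3' labels. With the 3' ratio turned, as library labelled control over library labelled knock, 15 of the 17 had the same sign in both assays, 13 of them negative in both, and Loxl1 and Serpinh1 had opposite signs. For 10 of the 17 both intervals then lay on the same side of 0, with the same limit for P4ha1 and Timp2. The 3' median of the members was then -0.75. The labels were kept as given, and their part in these directions was not tested.

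Summed, matrix RNA was a small share of the counts. Over the 34 members with a row in CBTi-seq, the level had a median of 3377 CPM (2824 to 3580) over the knock columns of CBTi-seq and 4109 CPM (3079 to 5727) over the control columns, with overlap. By the 3' method the sum over all 43 was 2769 CPM (2674 to 2886) over the columns of the library labelled knock and 1826 CPM (1705 to 2052) over those of the one labelled control, without overlap. Much of both 3' sums was Sparc alone, with column medians of 1478 CPM in the library labelled knock and 996 CPM in the one labelled control. The 11 collagen chains with a row in CBTi-seq made up 728 CPM (505 to 813) of the knock columns and 1067 CPM (457 to 1691) of the control columns. All 12 chains, Col12a1 included, made up 471 CPM (434 to 588) and 274 CPM (178 to 297) in the 3' libraries labelled knock and control. The proteases and inhibitors stood at 116 CPM (108 to 141) in the 3' library labelled knock and 22.0 CPM (7.51 to 29.6) in the one labelled control, again without overlap. Nearly all of that was Timp2 and Mmp14, since Timp1, Timp3 and Mmp2 had 0 counts in the 3' libraries and Mmp3 at most 2.

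**Figure D5:**
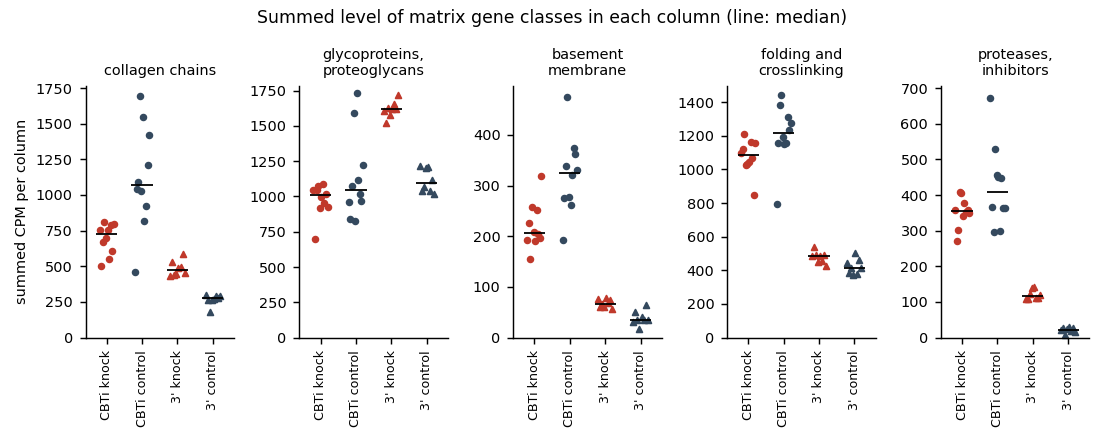
Summed CPM per column of each class of matrix genes, knock left and control right within each class, with a bar at the median. In CBTi-seq the 11 collagen chains with a row have a median of 728 CPM in the knock columns and 1067 CPM in the control columns with overlapping ranges, and in the 3' libraries all 12 have medians of 471 CPM in the library labelled knock and 274 CPM in the one labelled control with ranges that do not overlap.

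Control columns of CBTi-seq differed more among themselves than knock columns for several members. The coefficient of variation over columns beyond counting error was 3.00% in the knock columns and 75.8% in the control columns for Fn1, and 0% and 52.3% for Col5a1. For Ccn1 it was 48.5% in the knock columns and 85.8% in the control columns. Col5a3 was the other way round, with 81.2% in the knock columns and 36.3% in the control columns. Depth differed more among the control columns, and the part of depth in this spread was not tested.

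Some partners went together over columns and others did not, and the pairs given are some of those computed. Plod1 and Plod2 had a Spearman's rho of 0.36 over the 10 knock columns and 0.98 over the 10 control columns of CBTi-seq, and of -0.19 over the 8 columns of the 3' library labelled knock and 0.90 over the 8 of the one labelled control. Col6a1 and Col6a2 had 0.45 over the knock columns and 0.82 over the control columns of CBTi-seq, but -0.38 and -0.31 in the 3' libraries labelled knock and control. Col1a1 and Col1a2 had 0.22 over the knock columns and -0.21 over the control columns of CBTi-seq. Over the same knock and control columns, P4ha1 and Plod2 had 0.61 and 0.31, Lamb1 and Lamc1 0.30 and -0.25, and Serpinh1 and P4ha1 -0.14 and -0.76. Columns share a library and differ in depth, so these values describe them and carry no p.

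Among genes around the matrix, the hypoxia-inducible genes stood lowest in CBTi-seq. They were lower in the knock columns in 17 of 18 cases at 20 CPM or more, with a median log2 ratio of -0.73. The pH regulator gene Car9 was at 94.1 CPM in the knock columns and 298 CPM in the control columns, and the glucose transporter gene Slc2a1 had a log2 ratio of -1.06. The summed level of that list had a Spearman's rho with P4ha2 of -0.67 over the 10 knock columns and 0.21 over the 10 control columns, and with P4ha1 of -0.10 and 0.60. Matrix receptors had a median of -0.07 (5 higher, 7 lower), with Dag1, dystroglycan, at -0.72 and Cd44, a hyaluronan receptor, at 0.25. Genes of TGF-beta signalling, a main inducer of matrix genes, had a median of -0.16 (3 higher, 7 lower), but the ligand gene Tgfb1 was at 126 CPM in the knock columns and 79.2 CPM in the control columns (log2 ratio 0.67, 0.45 to 0.88). Genes of the YAP and TAZ target list, mechanical response genes that include Yap1 itself, had a median of -0.17 (1 higher, 10 lower). The genes of collagen export from the endoplasmic reticulum were the list with more members higher, 13 of 17, with a median of 0.09, led by Sar1b at 0.42 and Sec13 at 0.38. Other collagens had a median of -0.53 over 3 genes, with Col18a1 at -0.53, other glycoproteins and proteoglycans of -0.16 over 22 genes and other proteases and inhibitors of -0.22 over 9 genes.

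In the 3' libraries, other matrix glycoproteins and proteoglycans were mostly higher in the library labelled knock, 11 of 14 with a median log2 ratio of 1.12. Cspg4, the NG2 proteoglycan, was at 267 CPM in the library labelled knock and 28.2 CPM in the one labelled control (log2 ratio 3.24, 3.04 to 3.46). Ltbp1, which holds latent TGF-beta in the matrix, had a log2 ratio of 1.57, the osteopontin gene Spp1 of 1.32 and the third lysyl hydroxylase gene, Plod3, of 1.44. Hypoxia-inducible genes had a median of -0.54 (4 higher, 7 lower), with the oxidase gene Ero1l at -2.40 and Egln3, an oxygen sensor, at 1.36. The YAP target Ankrd1 was at 19.5 CPM in the library labelled knock and 89.1 CPM in the one labelled control. Collagen export genes had a median of -0.21 (6 higher, 8 lower), matrix receptors of 0.05 (5 higher, 5 lower), other proteases and inhibitors of 0.23 over 5 genes, TGF-beta genes of 0.88 over 3 genes, YAP and TAZ genes of 0.04 over 6 genes and other collagens of -0.21 over 4 genes.

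Marker lists of cell types differed between the 3' libraries too, and their part in the matrix values was not tested. The summed fibroblast markers ran from 1878 to 2134 CPM over the columns of the library labelled knock and from 874 to 1140 CPM over those of the one labelled control, while in CBTi-seq they ran from 1980 to 3138 CPM in the knock columns and from 2064 to 3113 CPM in the control columns. The summed leukocyte and macrophage markers ran from 136 to 191 CPM in the library labelled knock and from 67.0 to 120.2 CPM in the one labelled control, with 2 and 1 of 8 markers at 10 CPM or more and Ptprc, Itgam and Cd3e at 0 in both. The summed adipocyte markers ran from 414 to 582 CPM in the library labelled knock and from 111 to 166 CPM in the one labelled control, with 2 of 8 at 10 CPM or more in each, Fabp4 the highest, and Adipoq, Plin1, Cfd and Lep at 0 in both. The epithelial list, with Cdh1 alone at 10 CPM or more, ran the other way, from 90.7 to 174 CPM in the library labelled knock and from 139 to 252 CPM in the one labelled control. In CBTi-seq 3 of its 8 markers had a row and Cdh1 had none, so no level of that list is given there. Some fibroblast markers are members of the matrix list, so this list is not independent of it.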

How the data were processed

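Raw counts of genes, as whole numbers in each column, are what the authors deposited: 1 CBTi-seq table with gene symbols, named for UMIs (molecular identifiers), and 2 tables of the 3' method with Ensembl IDs, of which 55141 of 55402 matched a symbol. The submitters' processing notes name STAR 2.7.11b, Picard and FastQC, and the builds GRCm38 and GRCh38. The sources used here do not give the counting tool, its use of strand or whether the 3' counts are reads or molecules. The CBTi-seq table lists only genes with a count, so a gene without a row is not given a level there.

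For each group, its columns were added up and divided by the total of all gene counts (CPM). Levels have exact Poisson 95% intervals and log2 ratios exact conditional (Clopper-Pearson) 95% intervals. PCR copies without identifiers are not independent molecules, so these cover counting error only. There was 1 sample per group, so no test or p-value was computed. A gene was called where its mean reached 50 CPM and its log2 ratio was 1 or more in size, and list medians used genes at 20 CPM or more. The members and lists were chosen with earlier results of these data known. Members at 50 CPM or more were named, and in full where 2-fold apart or among the 12 largest ratios, with up to 4 genes per other list. Alternatives were median-of-ratios factors (DESeq2 1.42.0) and TMM factors (edgeR 4.0.16) in R 4.3.3, totals without mitochondrial and ribosomal protein genes, equal column weights, thinning to 50000 counts per column (which left out CBTi-seq control column 1), other level limits, leaving out each column, and a correction of CBTi-seq counts for UMI collisions. The draw of the thinning was random and was not repeated. Other steps used scipy 1.17.1, pandas 2.3.3, numpy 2.4.6 and matplotlib 3.10.9 under Python 3.11.15. Tested on simulated data with 200 altered genes of 20716 (CBTi-seq) and 55295 (3') genes, the interval held the true ratio for 96.0% and 95.0% of them. The simulated columns differed by counting error and depth only, so this checks the arithmetic and not how the intervals hold where cells differ. Gene positions are from GENCODE on GRCm38.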

Additional observations from a re-analysis of the deposited data

Results flagged for a closer look

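These results stood out because the same contrast, as labelled, had opposite signs in the assays, and the difference between assays was not tested. The share of all genes with opposite signs was not counted. The single members are those whose counting intervals lay on opposite sides of 0 and whose log2 ratio was at least 1 in size in 1 assay or both. The median log2 ratio of knock over control over members at 20 CPM or more was -0.58 in CBTi-seq and 0.75 in the 3' libraries. Col4a2, a basement membrane collagen chain, had log2 ratios of -0.75 in CBTi-seq and 1.94 in the 3' libraries. Fbln2, a fibulin of elastic and basement membrane matrix, had -0.48 and 2.05. Among the collagen-modifying enzymes, P4ha1 had -0.19 and 1.08, and Plod2 had -1.09 and 0.92. Among the proteases and inhibitors, Timp2 had -0.18 and 2.73, and Mmp14 had -0.58 and 2.10. With TMM or median-of-ratios factors the CBTi-seq intervals of P4ha1 and Timp2 would include 0. Rrm2 went against the 3' labels as well, with 148 CPM in the library labelled knock and 39.1 CPM in the one labelled control, so each 3' sign above is only as firm as those labels. With the 3' ratio turned, as library labelled control over library labelled knock, the 3' median is -0.75, the same sign as in CBTi-seq, and so is the sign of each gene named here. What part the labels have in these values was not tested.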

How the results depend on the processing

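The signs of both medians held under every change of scaling, weighting, thinning, level limit, columns or identifier correction that was run. The 3' median of 0.75 became -0.75 with the 3' ratio turned, as library labelled control over library labelled knock, an alternative chosen after seeing the data that changes nothing but the sign. In CBTi-seq the median log2 ratio of the members lay between -0.67 and -0.46 when each column was left out in turn, and was -0.69 after thinning to 50000 counts per column. In the 3' libraries it lay between 0.72 and 0.88 with columns left out and was 0.60 with TMM and with median-of-ratios factors. The count of members at least 2-fold lower in CBTi-seq was 3, lay between 2 and 4 with columns left out, and was 1 with a limit of 100 CPM. None was 2-fold higher in any of these (0 to 0). Which members were 2-fold lower also depended on the setting. With equal column weights Col1a2 (-0.96) fell short of 2-fold. After thinning Plod2 (-0.51) fell short, while the ratios of P4ha2 (-2.07), Plod1 (-1.03) and Mmp14 (-1.04) passed it. The count at least 2-fold higher in the 3' libraries was 2 with every column left out in turn (2 to 2), 6 with a limit of 20 CPM and 0 with a limit of 100 CPM, where fewer genes were counted, and the count lower was 0 throughout (0 to 0). With CBTi-seq control column 1 left out of the comparison of columns, an alternative chosen after seeing the data, 1 member had all knock columns below all control columns, against 0 with it. Over all genes, thinning gave 46 higher and 118 lower genes in CBTi-seq against 18 and 35, equal column weights gave 18 and 66, and leaving mitochondrial and ribosomal protein genes out of the totals gave 382 and 248 in the 3' libraries against 377 and 128. Those smaller totals raise every CPM, so more genes pass the fixed 50 CPM limit and the counts cover different genes. The thinned counts rest on fewer counts per column and leave out CBTi-seq control column 1. They come from a random draw that was not repeated, and no intervals are given for thinned ratios. The median of all genes in the 3' libraries was 0.18, and 0.02 and 0.01 with TMM and median-of-ratios factors. The correction for collisions of identifiers gave a CBTi-seq median of -0.59 for identifiers of 5 and of 6 bases. After thinning, P4ha2 had a CBTi-seq log2 ratio of -2.07, Col6a3 of -1.65, Mmp14 of -1.04, Sparc of 0.02 and Loxl1 of 0.10, and the 3' ratio of Col5a2 was 0.57; the cause was not tested. Members seen in 50% or more of the columns numbered 30 in each CBTi-seq group, and 27 in the knock columns and 29 in the control columns after thinning. In the 3' libraries they numbered 31 in the library labelled knock and 32 in the one labelled control, and 23 and 18 after thinning. No paired analysis was possible because the result comes from no test and no number pairs the columns of the groups.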
